A study of Mus musculus with 18 samples.

Results

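Kidney cortex of Mrl/lpr mice given prednisone was compared with kidney cortex of Mrl/lpr mice given vehicle, across all 15035 measured genes. The members of the comparison were chosen by the treatment labels: 3 prednisone mice (numbered 23, 29 and 35) and 3 vehicle mice (7, 17 and 36), which make up 6 of the 18 RNA-seq libraries of a study of lupus nephritis and its drug treatments. All 6 animals carry the lpr background, so none is a healthy or unaffected animal. The healthy reference was 3 Mrl/Mpj wild type animals, which also received vehicle. The other Mrl/lpr groups used below for reference were 3 mice on MMF (mycophenolate mofetil, an inhibitor of purine synthesis in lymphocytes) and 3 on FK506 (tacrolimus, a calcineurin inhibitor). A further 3 Mrl/lpr mice had the treatment labelled Multi-target, whose composition the labels do not give; they enter the fit and the plot of glucocorticoid-induced genes. The labels give no dose, duration, age or sex. Each library is 1 numbered mouse, and nothing further is stated about cages or litters. Errors (SE), intervals and p-values come from a fit that pools the spread between mice within groups over all 18 libraries. They are therefore not the scatter of the 6 compared mice alone. The median SD of a gene was 0.08 in healthy mice, below the 0.19 in prednisone and 0.22 in vehicle mice.

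Prednisone is a prodrug that is reduced to prednisolone by 11-beta-hydroxysteroid dehydrogenase type 1 and oxidised back by the type 2 enzyme. Prednisolone binds the glucocorticoid receptor, which then leaves its Hsp90 chaperone complex, enters the nucleus, switches on genes with glucocorticoid response elements and dampens transcription driven by NF-kappaB and AP-1. Mrl/lpr mice lack functional Fas, accumulate lymphocytes and develop immune-complex glomerulonephritis with infiltration by T cells and macrophages, for which glucocorticoids are a standard treatment in human lupus nephritis.

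The deposited values are log2 expression per gene symbol, and a difference of 1 is a factor of 2. Recovered read totals of the 6 libraries ranged from 33.2 M to 41.1 M reads, with a median gene at 786 to 1054 reads. Kidney markers were present in all 6 libraries: Umod, the uromodulin of the thick ascending limb, ranged from 16.16 to 17.84, Slc34a1, a proximal phosphate carrier, from 15.88 to 17.62, and Nphs1, the podocyte protein nephrin, from 10.48 to 11.34. Vehicle mouse 17 also held fat transcripts: Adipoq, the adipocyte hormone adiponectin, stood at 11.30 there and between 3.32 and 4.12 in the other 5 libraries. Vehicle mouse 36 lay farthest from the healthy mice on the first principal component of all 18 libraries (79.26, against 17.15 and 34.72 for vehicle mice 7 and 17), and its mean over 22 tubular injury genes was 3.09 above healthy, against 0.88 and 0.95. Prednisone mice 29 and 35 lay at -0.53 and 11.15 on that component and prednisone mouse 23 at 52.88, between vehicle mice 17 and 36. In bulk tissue, fewer cells of a type and less RNA per cell cannot be told apart.

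No gene passed the test between prednisone and vehicle. With limma over all 18 libraries and Benjamini-Hochberg adjustment, 0 of 15035 genes (0%) were called at an adjusted p under 0.05, and the smallest adjusted p was 0.943. At an unadjusted limma p under 0.05, 331 genes (2.2%) lay higher and 143 (0.951%) lower in prednisone mice, 474 in all. The count of such genes moved with single mice, to 1547 without prednisone mouse 23, 1319 without vehicle mouse 7, 257 without prednisone mouse 29 and 176 without prednisone mouse 35, while the number called by adjusted p was 0 under every alternative, including voom on the recovered reads (494 at the unadjusted threshold). All 3 prednisone mice lay above all 3 vehicle mice for 813 genes (5.41%) and below them for 196 (1.3%). Of all genes, 56.0% had a difference above 0, which is the share against which the signs in the lists below are to be read. The 95% interval of a difference had a median half-width of 0.39 log2 units, so smaller differences were within the error for most genes. The values below describe levels and their errors, and no difference between prednisone and vehicle is a call.

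The receptor that prednisolone binds overlapped between the groups. Throughout, values are given for vehicle mice 7, 17 and 36 and then prednisone mice 23, 29 and 35. Nr3c1, the glucocorticoid receptor, stood at 12.27, 12.45 and 12.37 and at 12.08, 12.49 and 11.99, a difference of -0.18 ± 0.14 (SE, n = 3 per group, 95% interval -0.47 to 0.12). Hsd11b1, which activates prednisone, stood at 11.44, 11.45 and 10.90 and at 10.96, 10.57 and 11.31 (-0.32 ± 0.31), and Hsd11b2, which inactivates prednisolone in the distal nephron, differed by 0.04 ± 0.23. The ranges of the groups overlapped for all 3 genes. The cytosolic chaperones that hold the unliganded receptor lay lower on prednisone, Hsp90ab1 by -0.57 ± 0.27 and Hsp90aa1 by -0.66 ± 0.37, both with overlapping groups. Of the 21 measured genes of the receptor and its regulators, 11 lay above 0 and 10 below, with a median of 0.03, beside 0.03 for all genes. That median was -0.01 without vehicle mouse 7, 0.06 without prednisone mouse 35 and -0.04 with quantile normalization.

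Textbook glucocorticoid-induced genes were mostly higher in prednisone mice, led by Zbtb16, G6pc and Fkbp5. Zbtb16, a zinc finger transcription factor induced by glucocorticoids in many tissues, stood at 8.83, 10.33 and 8.61 in vehicle and at 10.37, 10.75 and 10.78 in prednisone mice. The groups did not overlap, although vehicle mouse 17, the library with fat transcripts, came within 0.1 of the lowest prednisone mouse. The difference was 1.38 ± 0.54 (2.6-fold, 95% interval 0.22 to 2.53, limma adjusted p = 0.943). Fkbp5, an Hsp90 co-chaperone that lowers the receptor's affinity for hormone and is a sensitive transcriptional target of it, stood at 13.34, 12.62 and 12.07 and at 13.50, 13.58 and 14.45. The groups did not overlap, although vehicle mouse 7 was nearly as high as prednisone mice 23 and 29, and the difference of 1.16 ± 0.48 (2.24-fold) had a 95% interval of 0.15 to 2.18. G6pc, the catalytic subunit of glucose-6-phosphatase, stood at 13.84, 14.12 and 12.51 and at 14.16, 14.97 and 15.24, a difference of 1.30 ± 0.40 (2.46-fold, 95% interval 0.45 to 2.15). Its lowest value was in vehicle mouse 36 and its groups, which did not overlap, came closest at vehicle mouse 17 and prednisone mouse 23.

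Other classic targets differed less. Dusp1, the phosphatase that switches off MAP kinases, ranged from 11.05 to 11.57 in vehicle and from 11.76 to 12.32 in prednisone mice, without overlap, with a difference of 0.74 ± 0.57. Tsc22d3, which encodes the anti-inflammatory protein GILZ, stood at 12.04, 12.47 and 12.09 and at 12.55, 12.39 and 12.84 (0.40 ± 0.33). The groups overlapped for Tsc22d3, as they did for Klf9, a steroid-induced repressor (0.41 ± 0.45), the clock gene Per1 (0.19 ± 0.47) and the salt-transport kinase Sgk1 (0.16 ± 0.36). Nfkbia, the NF-kappaB inhibitor, differed by -0.04 ± 0.40 and Anxa1, the anti-inflammatory annexin, by -0.20 ± 0.32. Of the 28 measured induced genes, 22 lay above 0 and 6 below, with a median of 0.31. At the unadjusted p threshold 4 of the 28 lay higher and 0 lower (Mertk, the receptor by which macrophages clear dying cells, is the fourth, at 0.53 ± 0.22), and 4 had non-overlapping groups, beside 2.2% and 5.41% of all genes. Without prednisone mouse 35 the list's median was 0.11, without vehicle mouse 7 it was 0.19 and without prednisone mouse 29 it was 0.57. The list mean lay 0.16, 0.36 and 0.56 above healthy in the vehicle mice and 0.78, 0.25 and 1.14 in the prednisone mice. The groups thus overlapped, with prednisone mouse 29 below vehicle mice 17 and 36.

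Fkbp5 and Zbtb16 were also above most vehicle mice in Mrl/lpr mice labelled with other drugs. Fkbp5 stood at 13.27, 14.72 and 14.06 in the MMF mice and at 14.15, 13.66 and 13.06 in the FK506 mice, overlapping the prednisone mice in both cases. Zbtb16 stood at 10.10, 12.02 and 10.70 on MMF and at 10.70, 10.02 and 9.51 on FK506. Prednisone minus MMF was -0.18 ± 0.48 for Fkbp5 (limma adjusted p = 0.883) and -0.31 ± 0.54 for Zbtb16 (0.823), and prednisone minus FK506 was 0.22 ± 0.48 (0.992) and 0.55 ± 0.54 (0.983). In the healthy mice Fkbp5 was between 12.08 and 12.30. Averaged over the 28 induced genes, levels above healthy were 0.72 for prednisone, 0.96 for MMF, 0.51 for FK506 and 0.36 for vehicle.

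**Figure D1:**
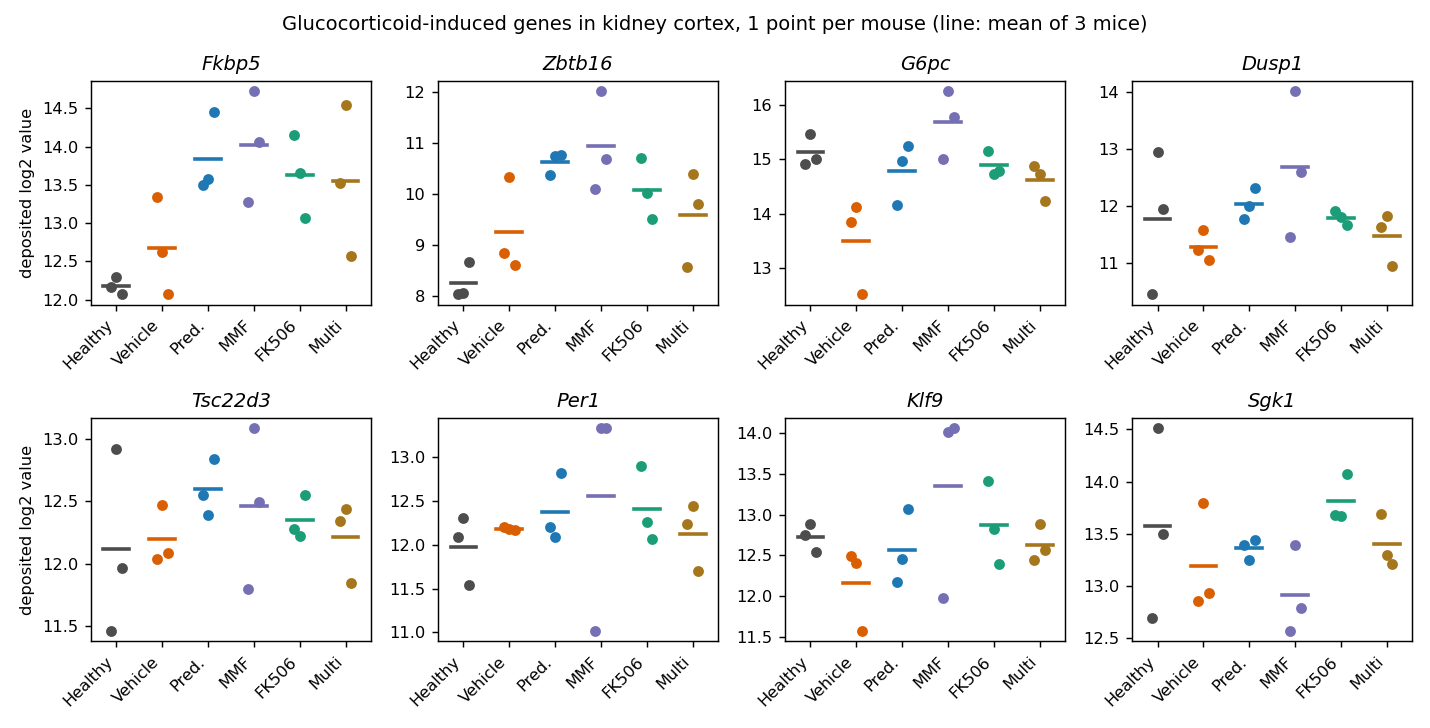
Deposited log2 values (y axis) of 8 glucocorticoid-induced genes in the 6 groups (x axis), 1 point per mouse and a line at the mean of 3 mice; Pred. is prednisone and Multi the multi-target treatment. Prednisone points lie above all vehicle points for Fkbp5, Zbtb16, G6pc and Dusp1, and the highest MMF mouse lies above all prednisone mice for each of these 4 genes.

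Glucocorticoid response elements were looked for in the 250 bases upstream of RefSeq transcript starts (GRCm38.p6). The motif was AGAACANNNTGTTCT on both strands, compared at its 12 fixed positions. At most 2 mismatches were found in 146 of 14217 windows of 11201 measured genes (1.03%), and the half-site AGAACA in 11.4% of windows, which counts sites inside the full motif too. Among the induced genes, 23 had a window, and 2 of their 33 windows (6.06%) held the full motif, both of them Sgk1. An exact match stood in 2 of all windows, 1 of Sgk1 and 1 of Acnat2. The windows below are shown because they set the Sgk1 element, in a gene whose level differed by 0.16, beside the windows of Fkbp5 and G6pc, whose levels differed by more than 1. Capitals mark the closest match to the motif in each window, which has 0 mismatches in Sgk1, 6 in Fkbp5 and 3 in G6pc.
Sgk1: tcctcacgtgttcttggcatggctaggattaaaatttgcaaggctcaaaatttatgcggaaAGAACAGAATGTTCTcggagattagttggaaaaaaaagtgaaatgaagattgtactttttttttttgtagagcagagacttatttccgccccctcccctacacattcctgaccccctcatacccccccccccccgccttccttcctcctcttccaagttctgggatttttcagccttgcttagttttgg
Fkbp5: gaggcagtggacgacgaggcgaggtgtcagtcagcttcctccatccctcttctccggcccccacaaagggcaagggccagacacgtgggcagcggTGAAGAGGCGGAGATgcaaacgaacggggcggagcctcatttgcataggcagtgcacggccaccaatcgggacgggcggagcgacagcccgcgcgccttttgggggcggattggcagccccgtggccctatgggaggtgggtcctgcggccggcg
G6pc: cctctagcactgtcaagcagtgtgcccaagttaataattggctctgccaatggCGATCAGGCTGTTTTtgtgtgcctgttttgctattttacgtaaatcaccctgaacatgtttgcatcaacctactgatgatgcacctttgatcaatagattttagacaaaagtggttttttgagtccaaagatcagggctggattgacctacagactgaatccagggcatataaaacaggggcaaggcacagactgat
The Sgk1 window is chr10:21993640-21993889 on the plus strand, and its match begins 189 bases upstream of that start. The Fkbp5 window is chr17:28486150-28486399 on the minus strand, and the G6pc window is chr11:101367466-101367715 on the plus strand. No Zbtb16 window was in the table. A match is a description of letters in a short window, and enhancers farther from a start were not searched.

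Among genes with an unadjusted limma p under 0.05 and non-overlapping groups, 215 lay higher and 56 lower in prednisone mice. With numbered gene models and date-like symbols left out, the largest positive differences besides Zbtb16, G6pc and Fkbp5 were in Ces1e, Kcnip2, Ddn, Acsm4, Ppara, Arrdc3 and Luzp2. Ces1e, a carboxylesterase (GRCm38 chr8:93201218-93229619, minus strand), stood at 9.30, 9.94 and 9.14 and at 10.30, 11.64 and 10.24, a difference of 1.27 ± 0.35 (2.41-fold). Ddn, which encodes dendrin of the podocyte slit diaphragm, stood at 8.52, 8.34 and 7.29 and at 8.57, 9.04 and 9.59 (1.02 ± 0.37). Ppara, the nuclear receptor that drives fatty acid oxidation, stood at 12.96, 12.78 and 12.23 and at 12.99, 13.44 and 14.32 (0.92 ± 0.39), and its groups were separated by only the gap between vehicle mouse 7 and prednisone mouse 23. Arrdc3, an arrestin-like adaptor for receptor trafficking, had a wider gap, at 11.50, 11.65 and 11.39 against 12.22, 12.17 and 12.78 (0.88 ± 0.31). Kcnip2, a potassium channel-interacting protein, differed by 1.13 ± 0.47, Acsm4, a medium-chain acyl-CoA synthetase, by 0.98 ± 0.29 and Luzp2, a leucine zipper protein, by 0.84 ± 0.27.

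The largest negative differences, chosen in the same way, were in Sfrp4, Acsm3, Wfdc17, Hcar1, Olfml3, Il18bp, Gucy1a2, Cd83, Tmem169 and Sertad4. Sfrp4, a secreted Wnt antagonist, stood at 5.44, 7.37 and 6.75 and at 5.43, 4.01 and 4.38, a difference of -1.91 ± 0.67 (95% interval -3.34 to -0.48). Its groups were separated by 0.01 between vehicle mouse 7 and prednisone mouse 23. Wfdc17, a small WAP-domain protein made by macrophages, stood at 7.65, 7.84 and 8.45 and at 7.20, 5.93 and 6.22, without overlap (-1.53 ± 0.38). Il18bp, the interferon-induced decoy for interleukin 18, stood at 11.21, 11.65 and 11.25 and at 11.09, 9.56 and 9.90 (-1.19 ± 0.47). Cd83, a surface protein of activated dendritic cells and B cells, stood at 8.60, 8.52 and 9.50 and at 8.51, 7.34 and 7.71 (-1.02 ± 0.32). In all 4 genes prednisone mouse 23 was the prednisone mouse closest to the vehicle group. The secreted protein gene Olfml3 (-1.25 ± 0.59), the soluble guanylate cyclase subunit gene Gucy1a2 (-1.09 ± 0.46), Tmem169 (-0.98 ± 0.36) and Sertad4 (-0.97 ± 0.31) completed the group.

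Acsm3, an acyl-CoA synthetase, stood at 6.17, 9.19 and 6.33 and at 5.35, 5.92 and 5.70 (-1.57 ± 0.60), and Hcar1, the lactate receptor of adipocytes, at 5.94, 7.88 and 5.89 and at 4.95, 5.87 and 4.72 (-1.39 ± 0.51). Both were highest in vehicle mouse 17. The 12 measured adipocyte markers averaged 5.04 above healthy in that mouse, 0.03 and 0.28 in vehicle mice 7 and 36, and 0.06 to 0.56 in the prednisone mice. Their median difference was -1.11 with all mice, 0.17 without vehicle mouse 17 and -1.82 without vehicle mouse 7, so the adipocyte difference rested on mouse 17. The part of these transcripts in the values of Acsm3 and Hcar1 was not tested. Acsm3 is also a member of the proximal tubule list, and it lay below healthy in prednisone mice, as given below. The 9 urothelial markers behaved alike, with a median of -0.56 with all mice, 0.59 without vehicle mouse 17 and -1.13 without vehicle mouse 7.

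**Figure D2:**
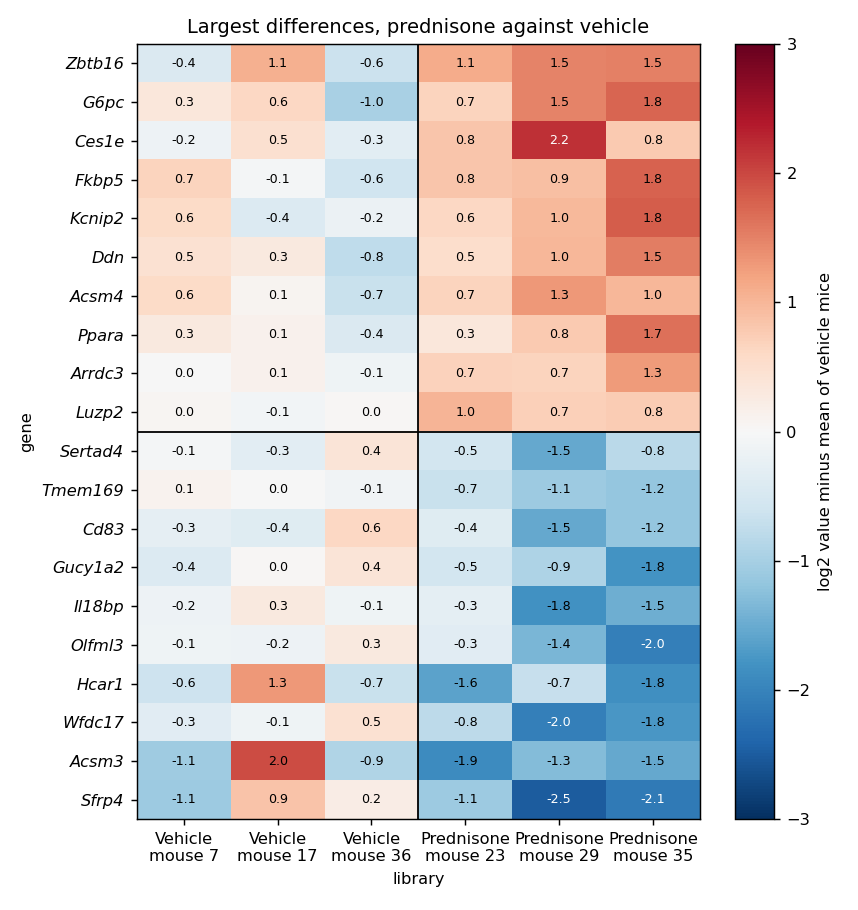
Log2 value of each of 6 libraries (columns) minus the mean of the 3 vehicle mice, for the 10 largest positive and 10 largest negative differences (rows) among genes with unadjusted limma p under 0.05 and non-overlapping groups. Numbered gene models and date-like symbols are left out. Red is higher and blue lower; Acsm3 and Hcar1 are high in vehicle mouse 17, and prednisone mouse 23 is paler than mice 29 and 35 for most of the lower genes.

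With numbered gene models and date-like symbols left out, the 10 smallest p-values included genes with differences under 1. Prdm16, a transcription factor of epithelial and fat cell identity, stood at 9.77, 9.47 and 9.89 and at 10.21, 10.26 and 10.28 (0.54 ± 0.13, limma adjusted p = 0.943). Mtcl1, a microtubule crosslinker, stood at 8.82, 8.99 and 8.91 and at 9.35, 9.38 and 9.37 (0.46 ± 0.12). The unadjusted limma p of Prdm16, 0.00105, was the lowest of all genes. In both genes the 3 prednisone mice, mouse 23 included, lay within 0.1 of each other and above every vehicle mouse. The scaffold gene Frmd4b differed by 0.82 ± 0.21, the galactolipid-synthesising Ugt8a by 0.75 ± 0.20, Prob1 by 0.72 ± 0.19, the growth hormone-releasing hormone receptor gene Ghrhr by 0.62 ± 0.17, the basement membrane netrin Ntn4 by 0.53 ± 0.15 and Tmem213 by 0.37 ± 0.10. Together with Wfdc17 and Ces1e these made up the 10 smallest p-values, of which 9 were higher on prednisone, and all 10 had non-overlapping groups. Of all 474 genes with an unadjusted limma p under 0.05, 331 were higher and 143 lower, and 271 had non-overlapping groups. A small p in the same comparison favours such a gap, so it is not separate evidence.

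Most lists of immune cell and interferon response genes were lower on average in prednisone mice. The lists were not tested as sets, and no member gene was called. All 15 measured interferon gamma-inducible GTPases, which attack intracellular vacuoles, had negative differences, from -1.43 to -0.44, with a median of -0.93. Gbp7 stood at 11.68, 13.12 and 12.50 and at 12.12, 11.01 and 11.37 (-0.93 ± 0.42), and Irgm1 was lowest in vehicle mouse 7 (13.69) among vehicle mice and highest in prednisone mouse 23 (14.32) among prednisone mice (-0.79 ± 0.41). For both, prednisone mouse 23 was above vehicle mouse 7, and 0 of the 15 genes had non-overlapping groups, beside 1.3% of all genes in this direction. The list mean exceeded healthy by 3.26, 5.01 and 4.37 in the vehicle mice and by 3.99, 2.85 and 2.85 in the prednisone mice. The list median stayed negative whichever mouse was left out, between -0.58 without vehicle mouse 17 and -1.46 without vehicle mouse 7.

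Type I interferon-stimulated genes were all negative as well (27 of 27, median -0.71), with 3 lower at the unadjusted threshold, beside 0.951% of all genes. Of these, Ifi27l2a stood at 9.51, 10.86 and 10.08 and at 9.66, 9.02 and 8.80 (-0.99 ± 0.29), Parp14, a mono-ADP-ribosyltransferase, differed by -0.95 ± 0.40 and the signal transducer Stat2 by -0.53 ± 0.24. This median depended on vehicle mouse 36: without it the value was -0.22, without prednisone mouse 29 it was -0.36, and without prednisone mouse 23 or vehicle mouse 7 it was -1.25 and -1.29. Antigen presentation was lower on average at both classes. Of the 19 genes of MHC class I, peptide loading and the immunoproteasome, 19 were negative with a median of -0.65, between -0.37 without prednisone mouse 29 and -0.90 without vehicle mouse 7. Tapbp, the peptide-loading chaperone tapasin, stood at 13.71, 13.93 and 14.66 and at 14.04, 12.86 and 13.17 (-0.74 ± 0.33).

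MHC class II genes gave 10 of 10 negative differences and a median of -0.63, between -0.35 without prednisone mouse 29 and -0.98 without prednisone mouse 23. Ciita, their master regulator, stood at 11.37, 11.76 and 11.94 and at 11.47, 10.13 and 10.25 (-1.07 ± 0.45), and H2-Ab1, a class II chain, at 14.81, 15.66 and 15.37 and at 15.14, 13.86 and 14.36 (-0.82 ± 0.46). Prednisone mice 29 and 35 were below every vehicle mouse for both genes and prednisone mouse 23 was not. Among dendritic cell markers 8 of 9 were negative (median -0.76), with Flt3, the receptor of dendritic cell progenitors, at 7.66, 7.97 and 7.95 and at 7.47, 7.66 and 7.20 (-0.42 ± 0.16). The dendritic cell list had 3 of 9 members lower at the unadjusted threshold and 2 of 9 without overlap, beside 0.951% and 1.3% of all genes, and its median was -0.40 without vehicle mouse 17 and -0.96 without vehicle mouse 7. A lectin of that list, Clec10a, had its highest value (8.16) in vehicle mouse 17.

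Markers of infiltrating lymphocytes and macrophages were mostly negative as well. All 19 T cell markers were negative, with a median of -0.47 that was -0.28 without prednisone mouse 29, -0.76 without vehicle mouse 7 and -0.78 without prednisone mouse 23. Cd8b1, a chain of the CD8 co-receptor, stood at 6.77, 7.50 and 7.64 and at 7.28, 6.56 and 6.40 (-0.55 ± 0.26), and Lck, the T cell receptor kinase, at 8.32, 9.30 and 9.44 and at 9.06, 7.49 and 8.13 (-0.80 ± 0.42). The 6 natural killer and cytotoxic markers were all negative (median -0.62, with -0.20 without vehicle mouse 36, -0.25 without prednisone mouse 29 and -1.02 without vehicle mouse 7), led by Klrk1, the activating receptor NKG2D (-0.88 ± 0.52), and the granule protein gene Nkg7 (-0.56 ± 0.37). Macrophage and monocyte markers were negative for 21 of 23 (median -0.60, with -0.26 without prednisone mouse 29, -0.31 without vehicle mouse 36 and -1.16 without prednisone mouse 23). The lysosomal Cd68 stood at 9.74, 9.61 and 10.82 and at 10.28, 8.60 and 8.81 (-0.83 ± 0.46). The mannose receptor Mrc1 differed by -0.40 ± 0.21, while Mertk lay higher. With the lowest 25% of genes left out, the median was -0.05 for T cell markers and -0.60 for macrophage and monocyte markers. All 6 natural killer and cytotoxic markers were among the genes left out, so the T cell and natural killer medians rested on genes of low level.

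B cell and plasma cell markers were mixed, with 5 of 14 above 0 and 9 below. Their median was -0.11 with all mice, 0.24 without vehicle mouse 36 and 0.05 without prednisone mouse 29, and it ranged down to -0.38 without vehicle mouse 7. Cd22, an inhibitory B cell lectin, stood at 8.06, 7.96 and 8.18 and at 7.77, 7.50 and 7.88, without overlap (-0.35 ± 0.20). The inhibitory receptor Cd72 differed by -0.93 ± 0.64 and Xbp1, the transcription factor of antibody secretion, by -0.15 ± 0.12. Complement genes were negative for 16 of 19 (median -0.46, with -0.14 without prednisone mouse 29, -0.25 without vehicle mouse 36 and -0.72 without prednisone mouse 23). The classical pathway gene C2 differed by -0.44 ± 0.21 and C1ra by -0.72 ± 0.34, whereas Cd59a, an inhibitor of the terminal complex, stood at 10.85, 10.75 and 10.63 and at 10.93, 10.97 and 11.22, without overlap (0.30 ± 0.14). The eosinophil, basophil and mast cell list, of which only 2 genes were measured, had 2 of 2 above 0 and a median of 0.27. Markers of lymphoid organ stroma, 5 of which were measured, averaged 0.74 to 1.83 above healthy in vehicle and 0.96 to 1.66 in prednisone mice.

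**Figure D3:**
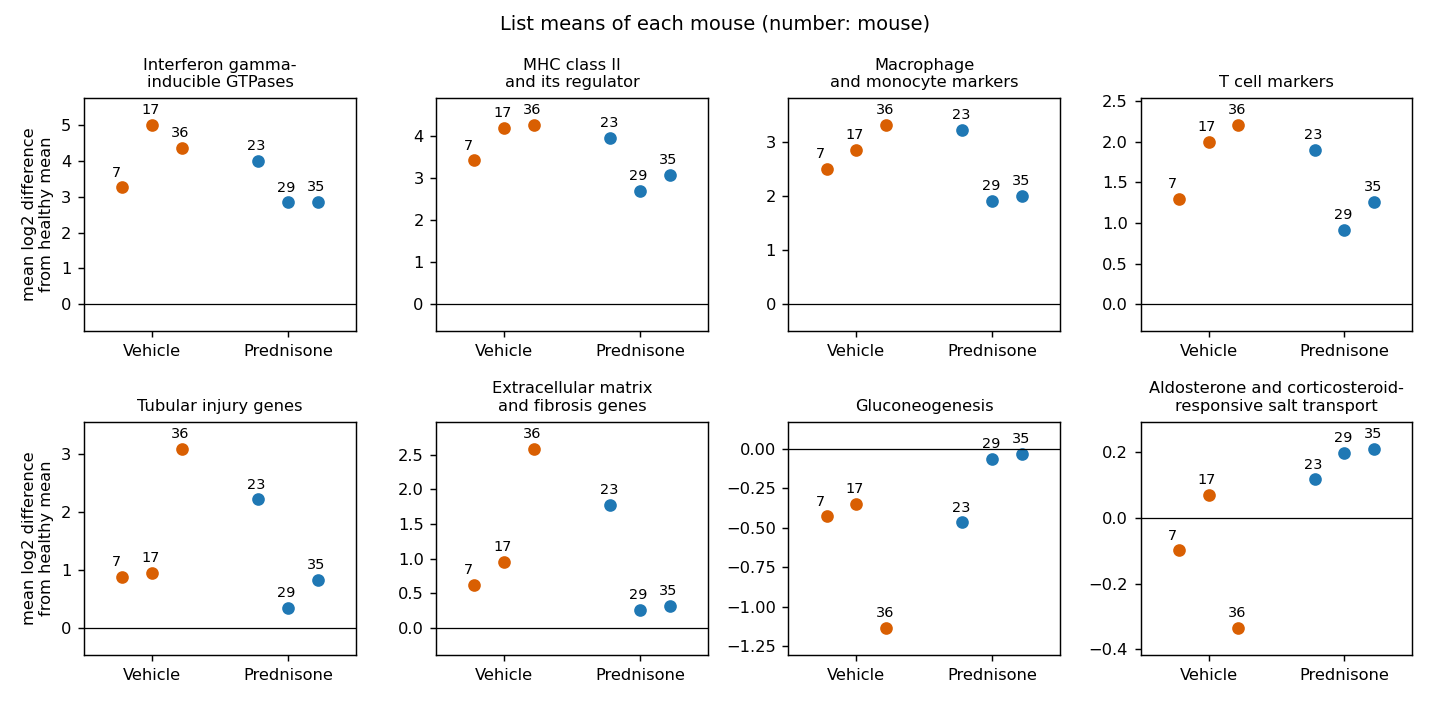
Mean log2 difference from the healthy mean (y axis) over 8 gene lists for each vehicle and prednisone mouse (x axis, points numbered by mouse; the points of a group are spread sideways). Prednisone mouse 23 sits among the vehicle mice for the immune, injury and matrix lists, vehicle mouse 36 is the extreme for injury and matrix genes, and only the salt transport means of the groups do not overlap.

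Inflammatory genes that glucocorticoids are known to repress gave 15 of 18 negative differences and a median of -0.43. That median rested on vehicle mouse 36: it was 0.05 without it and -0.27, -0.75, -0.78 and -0.86 without prednisone mouse 29, vehicle mouse 17, vehicle mouse 7 and prednisone mouse 23. The part of these single mice in the list differences was not tested further. Il1b, the inflammasome cytokine, stood at 8.53, 8.41 and 8.59 and at 7.67, 8.36 and 7.45, without overlap and with little spread among vehicle mice (-0.68 ± 0.39). The chemokine gene Ccl5 stood at 8.55, 9.75 and 13.13 and at 10.53, 7.97 and 8.79 (-1.38 ± 0.96), with vehicle mouse 36 far above the others. Ccl7, a monocyte chemokine, differed by -0.75 ± 0.45. NF-kappaB and AP-1 factors, with which the receptor interferes, were negative for 17 of 20 (median -0.25, between -0.52 without vehicle mouse 17 and 0.09 without vehicle mouse 36), among them Jun (-0.75 ± 0.54), Atf3 (-1.10 ± 0.78) and Relb (-0.47 ± 0.35).

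The list medians of tubular injury, matrix and stress genes depended on vehicle mouse 36 as well, although not every gene was highest in it. Spp1, the injury-induced osteopontin, stood at 19.04, 16.61 and 19.80 and at 18.44, 16.23 and 16.78 (-1.34 ± 0.78), Hmox1, the heme-degrading stress enzyme, differed by -0.85 ± 0.51 and the lipid droplet coat gene Plin2 by -0.83 ± 0.54. Of 22 injury genes 21 were negative with a median of -0.48, but the median was 0.21 without vehicle mouse 36, -0.01 without prednisone mouse 29 and -1.11 without prednisone mouse 23. Col3a1, a fibrillar collagen, stood at 11.17, 11.62 and 14.44 and at 12.68, 10.25 and 9.32 (-1.66 ± 0.94), and the matrix proteoglycans Lum and Bgn differed by -1.20 ± 0.64 and -0.76 ± 0.38. Matrix genes were negative for 28 of 30, with a median of -0.56 that was -0.06 without vehicle mouse 36 and -1.03 without prednisone mouse 23. Of the acute stress genes (immediate early factors and heat shock proteins), 13 of 15 were negative (median -0.75, between -0.20 without vehicle mouse 36 and -1.12 without vehicle mouse 7), with Hspa1a highest in vehicle mouse 17 (8.17, 11.46 and 9.92 against 8.78, 8.43 and 8.47). Cell cycle genes were negative for 28 of 30 (median -0.26, between -0.03 without vehicle mouse 36 and -0.66 without prednisone mouse 23), with Top2a at -0.47 ± 0.32, Birc5 at -0.64 ± 0.47 and Mcm2 at -0.26 ± 0.20.

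**Figure D4:**
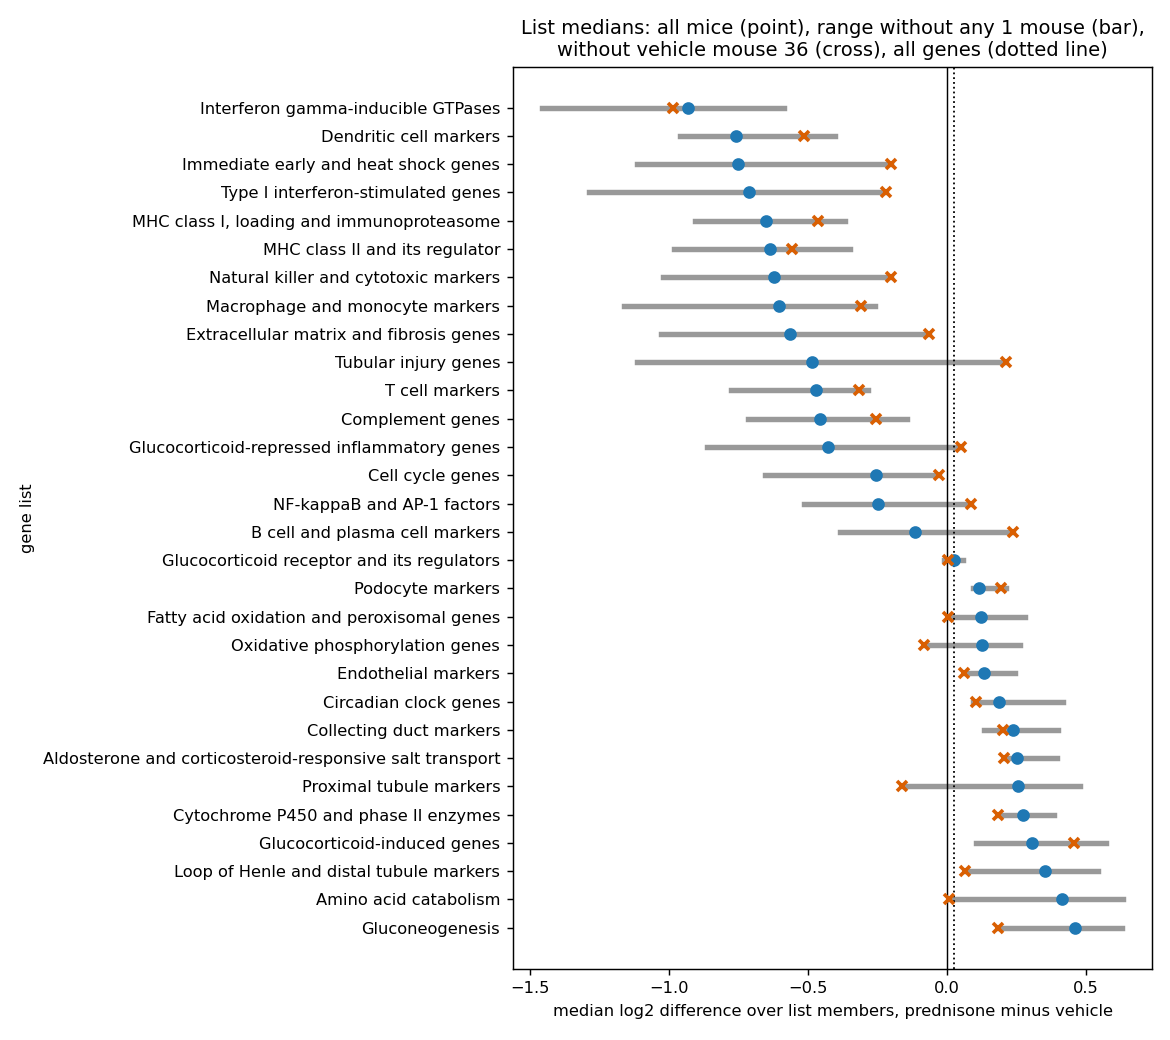
Median log2 difference, prednisone minus vehicle (x axis), over the members of 30 gene lists (y axis): all mice (blue point), the range when any 1 of the 6 mice is left out (grey bar) and the value without vehicle mouse 36 (orange cross), with all genes as a dotted line. Bars of the interferon gamma GTPases, MHC, dendritic, T cell and macrophage lists stay below 0 and those of salt transport, collecting duct and podocyte lists above it, whereas the injury, repressed-gene, NF-kappaB and B cell bars cross 0.

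Genes of the nephron beyond the proximal tubule were higher on average in prednisone mice. Slc12a3, the thiazide-sensitive sodium chloride cotransporter, stood at 15.01, 15.03 and 14.02 and at 14.72, 15.35 and 15.66 (0.56 ± 0.24). The kinases Wnk4 and Stk39, which activate the cotransporters, differed by 0.57 ± 0.22 and 0.35 ± 0.14, and the groups did not overlap for Stk39. Of the 23 markers of loop of Henle and distal tubule 22 were positive, 6 of them under the unadjusted threshold (2.2% of all genes) and 3 without overlap (5.41%). Their median was 0.35 with all mice, 0.54 without vehicle mouse 17 and 0.07 without vehicle mouse 36, whose mean relative to healthy was -1.10 for these genes, against -0.16 and -0.02 in vehicle mice 7 and 17.

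Salt transport genes that respond to aldosterone and corticosteroids were positive for 18 of 18, with a median of 0.25 that stayed between 0.21 without vehicle mouse 36 and 0.40 without vehicle mouse 17 when a mouse was left out. Set against healthy, the list mean was -0.10, 0.07 and -0.34 in the vehicle group and 0.12, 0.20 and 0.21 in the prednisone group, without overlap. Averaged over mice it was 0.18 on prednisone, 0.22 on FK506, 0.04 on MMF and -0.12 on vehicle, so the higher level was not particular to prednisone. Several members belong to the distal tubule or induced lists too, so these lists are not separate evidence. Slc26a4, the pendrin exchanger of intercalated cells, stood at 12.60, 12.67 and 11.95 and at 12.86, 12.98 and 12.75, without overlap (0.46 ± 0.21), and Usp2, a deubiquitinase of the epithelial sodium channel pathway and a clock output, differed by 0.75 ± 0.35. Collecting duct markers were positive for 14 of 17 (median 0.24, between 0.13 without vehicle mouse 7 and 0.40 without vehicle mouse 17), with Atp6v0d2, a proton pump subunit, at 11.37, 11.40 and 10.96 and at 11.46, 11.66 and 11.58 (0.32 ± 0.14) and the water channel Aqp3 at 0.34 ± 0.17.

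Podocyte and endothelial genes differed by small amounts. Podocyte markers were positive for 17 of 22, with a median of 0.12 (between 0.09 without vehicle mouse 7 and 0.21 without prednisone mouse 29, and 0.20 without vehicle mouse 36), and 6 of the 22 lay higher at the unadjusted threshold and 4 without overlap, beside 2.2% and 5.41% of all genes. Col4a4, a chain of the glomerular basement membrane collagen, stood at 13.26, 12.92 and 12.56 and at 13.21, 13.48 and 13.33 (0.43 ± 0.16), Podxl, the podocyte surface sialomucin, at 13.62, 13.69 and 13.11 and at 13.90, 13.79 and 14.23, without overlap (0.50 ± 0.21), and the receptor phosphatase Ptpro differed by 0.36 ± 0.15. Endothelial markers were positive for 15 of 18 (median 0.13, between 0.06 without vehicle mouse 36 and 0.25 without vehicle mouse 17), with the junction genes Esam at 0.38 ± 0.17 and Cldn5 at 0.36 ± 0.19 without overlap and the nitric oxide synthase Nos3 at 0.27 ± 0.23.

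Medians of the proximal tubule and metabolic lists were also above 0 with all mice, and they depended on vehicle mouse 36. Aqp1, the proximal water channel, stood at 15.38, 15.36 and 13.47 and at 15.17, 15.79 and 15.61 (0.79 ± 0.39), and Hnf4a, the proximal tubule transcription factor, at 15.21, 15.20 and 14.17 and at 14.91, 15.39 and 15.67 (0.46 ± 0.26). For both genes, vehicle mice 7 and 17 lay inside the prednisone range. Proximal tubule markers were positive for 18 of 25, with a median of 0.26 that was -0.16 without vehicle mouse 36, 0.004 without prednisone mouse 29 and 0.48 without vehicle mouse 17. Gluconeogenesis genes were positive for 15 of 16 with a median of 0.46, which was 0.19 without vehicle mouse 36 and 0.63 without vehicle mouse 17. Beside G6pc they included its membrane partner Slc37a4, which carries glucose-6-phosphate into the endoplasmic reticulum (12.14, 12.01 and 10.67 against 11.85, 12.46 and 12.61, 0.70 ± 0.32), and Pck1, the committed enzyme (15.47, 16.38 and 14.91 against 15.53, 16.62 and 17.34, 0.91 ± 0.47).

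Amino acid catabolism genes were positive for 27 of 29 (median 0.42, between 0.01 without vehicle mouse 36 and 0.64 without vehicle mouse 17), with the transsulfuration enzymes Cth and Cbs at 0.67 ± 0.30 and 0.61 ± 0.28 and the proline oxidase gene Prodh at 0.75 ± 0.35. Oxidative phosphorylation genes were positive for 37 of 39, but their median was 0.13 with all mice, -0.08 without vehicle mouse 36 and 0.26 without vehicle mouse 17, and the named subunits Ndufb8, Ndufv1 and Sdhb differed by 0.23 ± 0.14, 0.22 ± 0.14 and 0.26 ± 0.19. Fatty acid oxidation and peroxisomal genes were positive for 24 of 30 (median 0.13, with 0.004 and 0.005 without vehicle mouse 36 and prednisone mouse 29 and 0.28 without vehicle mouse 17), with the omega-hydroxylases Cyp4a14 and Cyp4a31, targets of Ppara, at 0.80 ± 0.39 and 0.37 ± 0.19. Drug-metabolising P450 and phase II enzymes were positive for 18 of 29, which is 62.1% beside 56.0% of all genes (median 0.27, with 0.18 without vehicle mouse 36 and 0.39 without prednisone mouse 23), among them Cyp2d26 at 12.91, 12.74 and 11.13 and at 12.60, 13.31 and 13.78 (0.97 ± 0.44). Clock genes were positive for 14 of 18 (median 0.19, between 0.09 without prednisone mouse 29 and 0.42 without vehicle mouse 17), the clock-output factors Hlf and Tef by 0.66 ± 0.33 and 0.47 ± 0.29, while Nfil3, their antagonist, stood at 9.34, 9.92 and 9.47 and at 9.25, 8.24 and 9.34 with groups that met at 9.34 (-0.63 ± 0.39). The labels give no time of day.

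Several hormone-responsive kidney genes were lower on prednisone. Igf1, the growth hormone-dependent growth factor, stood at 8.03, 8.96 and 10.01 and at 8.36, 8.16 and 7.19 (-1.10 ± 0.42), and Cish, a feedback inhibitor of growth hormone and cytokine signalling, at 11.71, 11.29 and 11.56 and at 10.29, 9.44 and 11.40 (-1.14 ± 0.51). Kap, the androgen-regulated kidney protein of the proximal tubule, stood at 15.03, 16.92 and 14.12 and at 14.25, 12.98 and 8.95. Its difference of -3.29 ± 1.88 had a 95% interval of -7.30 to 0.71. Prednisone mouse 35 lay far below the other prednisone mice, and the groups overlapped. Over all 16 androgen and growth hormone responsive genes, 6 were positive and 10 negative, with a median of -0.09 (between -0.52 without vehicle mouse 36 and 0.01 without vehicle mouse 17).

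Against the healthy mice, prednisone mice differed in many genes. The test called 2509 of 15035 genes (16.7%), 2014 higher (13.4%) and 495 lower (3.29%), while vehicle mice differed from the same healthy mice in 3369 genes (22.4%), 2353 higher (15.7%) and 1016 lower (6.76%). Because the healthy mice are shared, and the spread is pooled over all groups, these counts are given side by side and not compared. The prednisone count was 1036 without prednisone mouse 23, 1197 without prednisone mouse 35, and 1114, 1168 and 1281 without healthy mice 1, 2 and 3. For vehicle the number was 1490 when mouse 36 was left out, and from 1744 to 1863 when any 1 of the healthy mice was. The median of all genes lay 0.13 above healthy in prednisone and 0.09 in vehicle mice, and with library medians subtracted the share of higher calls went from 80.3% to 41.7% for prednisone and from 69.8% to 37.0% for vehicle.

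The genes farthest from healthy in vehicle mice were still far from healthy in prednisone mice. Ubd, an interferon-induced ubiquitin-like protein, stood at 3.96, 5.48 and 5.27 in healthy, 10.22, 12.36 and 13.62 in vehicle and 12.59, 9.18 and 10.71 in prednisone mice. It rose by 5.92 ± 1.06 over healthy on prednisone (limma adjusted p = 0.00246), and prednisone minus vehicle was -1.24 ± 1.06. Iigp1 and Tgtp1, interferon gamma GTPases, rose by 5.80 ± 0.69 and 5.62 ± 0.63 over healthy and differed by -1.07 ± 0.69 and -1.06 ± 0.63 from vehicle. Saa3, an acute-phase protein, stood at 7.74, 7.54 and 7.72 in vehicle and 8.29, 6.80 and 7.52 in prednisone mice, with healthy mice between 0.06 and 1.27, near the level of a single read. Fpr2, a formyl peptide receptor of phagocytes, likewise stood at 7.36, 8.29 and 7.75 and at 8.29, 7.70 and 7.07, above healthy levels of 0.18 to 1.27. For both genes the prednisone and vehicle mice overlapped, with differences of -0.12 ± 0.52 and -0.11 ± 0.53.

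Genes below healthy gave a mixed picture. Dnase1, a secreted nuclease, stood at 15.20, 14.81 and 14.70 in healthy, 11.76, 12.47 and 9.31 in vehicle and 10.40, 13.42 and 12.62 in prednisone mice (0.97 ± 0.81 against vehicle), and fell by 2.76 against healthy (± 0.81, limma adjusted p = 0.0314). The carboxylesterase genes Ces1d and Ces1e fell by 2.42 ± 0.39 and 1.54 ± 0.35 against healthy, and lay 0.87 ± 0.39 and 1.27 ± 0.35 above vehicle. Hdc, the histamine-forming enzyme, fell by 2.30 ± 0.56 against healthy and lay 0.25 ± 0.56 above vehicle (-0.07 without vehicle mouse 36 and -0.17 without prednisone mouse 35). Prlr, the prolactin receptor, stood at 9.75, 9.87 and 9.84 in vehicle and at 9.52, 9.42 and 8.23 in prednisone mice, so that all prednisone mice were farther from the healthy range of 12.92 to 13.12 than any vehicle mouse (-0.76 ± 0.76). Kap, Chrm2, the M2 muscarinic receptor gene, and Akr1c18, a progesterone-inactivating reductase, fell by 5.75 ± 1.88, 4.78 ± 1.53 and 3.11 ± 0.85 against healthy on prednisone (limma adjusted p = 0.0484, 0.0444 and 0.0233). The vehicle minus healthy differences of these 3 genes, -2.46 ± 1.88, -1.93 ± 1.53 and -1.74 ± 0.85, did not pass the test, and the gap between the groups was not a call for any of them. Acsm3 and Prlr fell by 2.97 ± 0.60 and 3.96 ± 0.76. Zbtb16 and Fkbp5 rose over healthy on prednisone, by 2.38 ± 0.54 (limma adjusted p = 0.00948) and 1.66 ± 0.48 (0.0287), and Nr3c1 fell by 0.67 ± 0.14 (0.0060). For each of these genes the prednisone minus vehicle difference, given above, was smaller in size and was not a call. The vehicle mean thus already lay on the same side of healthy.

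**Figure D5:**
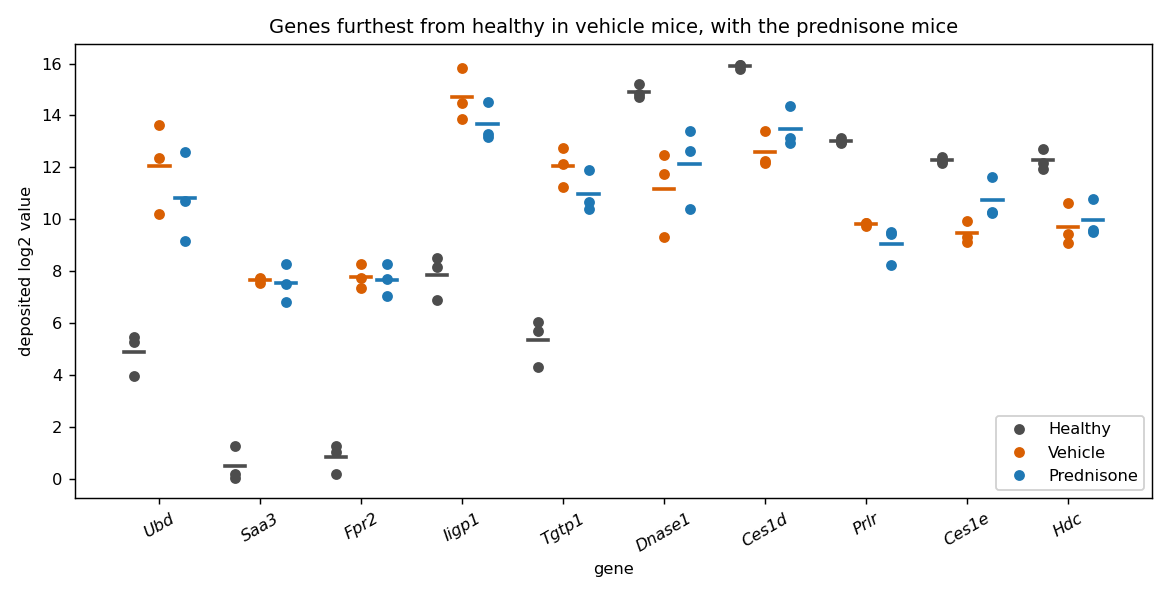
Deposited log2 values (y axis) of the 5 genes farthest above and 5 farthest below healthy in vehicle mice (x axis), with healthy (grey), vehicle (orange) and prednisone mice (blue), 1 point per mouse and a line at each mean. Prednisone and vehicle points overlap for all of these genes except Prlr, which is lower, and Ces1e, which is higher on prednisone, and both groups stand apart from healthy.

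Between prednisone and the single drugs of other classes, no gene was called either. Prednisone minus MMF gave 0 calls of 15035 (0%), where limma's lowest adjusted p was 0.119, while 2058 genes had an unadjusted p under 0.05 (1922 with voom, which also called 0). Leaving out MMF mouse 1 gave 2419 calls, 1601 of them higher on prednisone, so this count rested on that mouse. The large positive differences included Saa3 (2.63 ± 0.52), the lymphocyte GTPase gene Gimap7 (2.11 ± 0.70), the myeloid lectin gene Clec4a3 (1.88 ± 0.56) and Fpr2 (1.88 ± 0.53). The largest negative ones were in the activin subunit gene Inhbb (-1.11 ± 0.40), the fatty acid hydroxylase Cyp4a10 (-1.02 ± 0.27), the stress-induced Sesn2 (-0.82 ± 0.23), Fitm1 (-0.75 ± 0.29) and Hist1h1c (-0.75 ± 0.23). Saa3 stood at 4.92, 5.55 and 4.28 in MMF mice, below all prednisone mice.

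Prednisone minus FK506 also gave 0 calls (0%), where limma's lowest adjusted p was 0.982, while 426 genes had an unadjusted p under 0.05 (437 with voom, which also called 0). Positive differences were led by Igfbp2, which binds insulin-like growth factors (2.57 ± 1.20), the interferon-inducible Gvin1 (1.57 ± 0.51), the anchoring protein gene Akap12 (1.31 ± 0.53), the protease gene Pappa2 (1.23 ± 0.46) and Clec4e, a myeloid lectin (1.14 ± 0.32). Negative ones were led by Akr1b7 (-2.16 ± 0.96), which stood at 11.67 in FK506 mouse 12 and at 6.65 and 6.36 in FK506 mice 3 and 24, followed by Pla2g2d (-1.38 ± 0.64), Kcns1 (-1.15 ± 0.52), Wfdc16 (-0.96 ± 0.40) and Fitm1 (-0.84 ± 0.29). Adrenal markers averaged 1.36 above healthy in the FK506 group and 0.07 in the prednisone group, and their part in the Akr1b7 value was not tested. Macrophage markers averaged 2.38 above healthy on prednisone, 1.30 on MMF, 1.77 on FK506 and 2.90 on vehicle, and matrix genes 0.78, 0.07, -0.05 and 1.39, in the same order.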

How the data were processed

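Kidney cortex RNA of 18 mice was measured by RNA-seq, per the labels. The authors deposited log2 values per gene symbol. The submitters' processing notes name limma and mm10. The aligner, counter and annotation were: not given in the sources used here. Dividing 2 to the power of a value by the value of 1 read gave whole reads (within 0.001) for 75.1% to 75.2% of genes in the 6 libraries. Values were fitted as deposited with limma 3.58.1 (R 4.3.3), group means over 18 libraries, a mean-dependent prior, 12 residual degrees of freedom and adjustment over 15035 genes at 0.05; the fit was tested on simulated data. Named genes are the 10 largest differences in each direction at unadjusted p under 0.05 without overlap, the 10 smallest p, 12 check genes, up to 3 smallest p per list, and the 5 largest per direction in the reference comparisons; members and lists were chosen with earlier results of these data known. Numbered gene models and 23 date-like symbols are not named. A few genes that the rule selects are not reported here. Positions are from GENCODE on GRCm38. Alternatives were other scalings, fits, filters and leaving out each mouse.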

Additional observations from a re-analysis of the deposited data

How the results depend on the processing

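With prednisone against vehicle, 0 genes were called under all 14 alternatives. Genes with an unadjusted limma p under 0.05 numbered 474, 288 with only the 15 Mrl/lpr libraries and 324 with only the 2 groups compared. Prednisone against healthy gave 2509 calls, 4111 with only these groups, 5697 with array weights (which had not converged) and 1036 to 2969 when a mouse was left out. Vehicle against healthy gave 3369, 2226 when the lowest 25% of genes were dropped, 5519 with array weights and 1490 to 4023 when a mouse was left out. Prednisone against MMF gave 0, 2739 with array weights and 0 to 2419 when a mouse was left out. With a lone mouse removed, the remaining pair is assumed to vary like the other groups. Of 130 named genes, 10 turned sign somewhere, none of them called. When a mouse was left out, the prednisone minus vehicle difference ranged from -0.132 to 0.267 for Hsd11b2, -0.0319 to 0.334 for Per1, -0.0047 to 0.465 for Sgk1, -0.254 to 0.316 for Nfkbia, -0.638 to 0.116 for Anxa1, -0.759 to 0.0197 for Relb, -0.0412 to 0.427 for Sdhb, -0.500 to 0.245 for Saa3, -0.414 to 0.197 for Fpr2 and -0.170 to 0.702 for Hdc. Quantile normalization gave -0.0351 for Hsd11b2, and array weights gave -0.0850 for Sgk1, 0.245 for Nfkbia and -0.0756 for Hdc; the cause was not tested. Quantile normalization made 46.7% of prednisone calls and 43.7% of vehicle calls against healthy higher ones. Of 42 list medians, 40 turned or moved by over 1.5 times when a mouse was left out or the libraries were rescaled. Leaving out a mouse turned 14 of them. Array weights turned the medians of proximal tubule (-0.07), fatty acid oxidation (-0.05), oxidative phosphorylation (-0.03) and B cell and plasma cell genes (0.08). No paired analysis was made, because each library is 1 mouse and the labels give no pairing of mice between groups. At most 0.120% of values in each of the 6 libraries were below 10 reads.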

Other observations

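A few gene groups outside the comparisons above are given as values, with no gene called between prednisone and vehicle. Neutrophil markers were positive for 4 of 12, and they averaged 1.63 above healthy on prednisone and 1.76 on vehicle. Their median of -0.29 was -0.05 without prednisone mouse 35, -0.16 without vehicle mouse 7, -0.19 without prednisone mouse 29 and -0.43 without prednisone mouse 23. Toll-like receptors and nucleic acid sensors were negative for 13 of 15, with a median of -0.32. It was -0.14 without vehicle mouse 36, -0.19 and -0.20 without prednisone mice 29 and 35, and -0.59 without prednisone mouse 23. Acute phase and formyl peptide receptor genes were negative for 10 of 12, with a median of -0.29. It was -0.05 without vehicle mouse 36, -0.13 without prednisone mouse 29, -0.52 without vehicle mouse 17 and -0.61 without prednisone mouse 23. Erythroid genes were positive for 6 of 6, with a median of 0.51 that was 0.25 and 0.32 without prednisone mouse 29 and vehicle mouse 7 and 0.60 without prednisone mouse 35. Renin-angiotensin genes were positive for 7 of 9, with a median of 0.11. It was -0.10 without vehicle mouse 36, 0.02 without prednisone mouse 29, 0.06 without vehicle mouse 7 and 0.22 without vehicle mouse 17. Cytosolic ribosomal protein genes had a median of 0.01 over 29 genes, between -0.08 without prednisone mouse 35 and 0.17 without vehicle mouse 36.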
